A study of Mus musculus with 2 samples.

Results

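The gasdermins are a family of pore-forming proteins, and all 9 genes of the list Gsdma, Gsdma2, Gsdma3, Gsdmc, Gsdmc2, Gsdmc3, Gsdmc4, Gsdmd and Gsdme were followed here. They were taken by symbol from 43346 mouse genes, and each had a row in the gene and transcript tables. RNA came from whole stomach of 8-week-old C57BL/6J mice, with males and females pooled. It was polyadenylated, depleted of ribosomal RNA and longer than 200 nucleotides, and it was read in stranded pairs of 76 nucleotides. A single group of 2 libraries, replicates 1 and 2, was available with no treatment, genotype or other tissue beside it, so values are described and no test between groups was made. Both libraries carry the same donor record, and whether the pools held separate animals is not known. The SD given below is therefore the spread between these libraries.

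A gasdermin has an N-terminal domain that can insert into membranes and a C-terminal domain that holds it in check. Proteases cut the linker between the domains, and the freed N-terminal part forms pores in the plasma membrane, which release interleukin-1 family cytokines and can end in lytic cell death, called pyroptosis. The family was named for its expression in the gastrointestinal tract and the skin, and the mouse carries several tandem copies of Gsdma and of Gsdmc.

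The copies lie in tandem and are close in sequence, which bears on every value below. In GENCODE M21 gene models on GRCm38 (mm10), Gsdma3 lies at chr11:98626360-98638226, Gsdma2 at chr11:98646759-98657964 and Gsdma at chr11:98664351-98677708, all on the plus strand. The coding sequence of Gsdma shared 91.5% of aligned bases with that of Gsdma2 and 89.8% with that of Gsdma3. The first 76 coding bases are printed because they show how little separates the copies over the length of 1 read. They come from exon 3 of Gsdma2 (chr11:98649054-98649129), exon 2 of Gsdma (chr11:98666061-98666136) and exon 2 of Gsdma3 (chr11:98629352-98629427), and capitals mark the 5 positions at which the genes differ.
Gsdma2: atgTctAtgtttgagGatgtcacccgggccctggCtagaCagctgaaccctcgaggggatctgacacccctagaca
Gsdma: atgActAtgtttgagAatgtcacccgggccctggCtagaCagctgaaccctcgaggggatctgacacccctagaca
Gsdma3: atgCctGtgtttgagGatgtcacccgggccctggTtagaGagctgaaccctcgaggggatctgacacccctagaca

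The Gsdmc genes lie on the minus strand of chromosome 15, with Gsdmc at chr15:63775968-63808759, Gsdmc2 at chr15:63824346-63845177, Gsdmc3 at chr15:63857724-63878558 and Gsdmc4 at chr15:63891264-63912297. Gsdmc2 and Gsdmc3 shared 97.1% of coding bases, and Gsdmc shared 87.0% with Gsdmc2. The first 76 bases of coding exon 3 are printed to show that Gsdmc stands apart from its copies there, while Gsdmc2 and Gsdmc3 are the same over all 178 bases of that exon. Capitals mark the 24 positions that vary among the genes. The stretches lie at chr15:63835032-63835107 in Gsdmc2, chr15:63868385-63868460 in Gsdmc3, chr15:63902018-63902093 in Gsdmc4 and chr15:63803678-63803753 in Gsdmc.
Gsdmc2: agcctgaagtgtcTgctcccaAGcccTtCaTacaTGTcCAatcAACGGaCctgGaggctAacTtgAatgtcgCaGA
Gsdmc3: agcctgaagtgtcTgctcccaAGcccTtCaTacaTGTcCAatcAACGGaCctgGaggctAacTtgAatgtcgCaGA
Gsdmc4: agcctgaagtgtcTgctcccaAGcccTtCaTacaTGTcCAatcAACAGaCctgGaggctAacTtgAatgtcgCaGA
Gsdmc: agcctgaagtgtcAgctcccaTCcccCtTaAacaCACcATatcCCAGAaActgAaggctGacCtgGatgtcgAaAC

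Over all annotated transcripts, 61.1% of the distinct 76-base windows of Gsdmc2, 64.5% of those of Gsdmc3 and 71.9% of those of Gsdmc4 occurred in no other gene. The share was 89.3% for Gsdmc, 96.7% for Gsdma, 97.4% for Gsdma2 and 99.8% for Gsdma3. Every window of Gsdmd (chr15:75862327-75867408, plus strand) and of Gsdme (chr6:50188888-50263862, minus strand) was its own. Reads from the Gsdmc copies were thus divided by the authors' model more often than reads from the other gasdermins, and read pairs, which span more than 76 bases, separate the copies better than these windows show.

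The libraries held 52363597 and 62452468 expected counts, which are estimated read pairs per gene and can be fractional. Clps and Pgc together took 29.6% of the TPM (transcript abundance adjusted for length and library total) of replicate 1 and 42.7% of those of replicate 2, so every other TPM is set partly by them. The tissue was checked by marker lists. All 6 pit cell, 5 chief cell and 4 parietal cell markers, and all 15 markers of the forestomach's squamous epithelium, were at a TPM of at least 1 in both libraries. The squamous markers summed to 9424.8 TPM in replicate 1 and 6163.0 TPM in replicate 2, a gap carried mostly by Cnfn (4017.3 and 2259.8 TPM), Lor (1055.9 and 280.6 TPM) and Sprr3 (1496.2 and 917.4 TPM). By scaled counts, 7 of the 15 were higher in replicate 1 and 8 in replicate 2. None of 7 hair follicle markers and none of 6 T and NK cell markers reached TPM 1 in both libraries. Of 6 markers of small and large intestine epithelium, 1 did, Apoa4 with 24.78 TPM in replicate 1 and 13.45 TPM in replicate 2. The neutrophil list summed to 16.3 and 2.94 TPM, nearly all of it from Retnlg, with S100a8 and Ly6g at 0. In whole tissue, fewer cells of a type and less RNA per cell cannot be told apart.

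Of the 9 gasdermins, 5 had a TPM of at least 1 in both libraries. Over all mouse genes the share at that level was 25.2%, and over protein-coding genes it was 48.9%. The gasdermins summed to 1468.0 TPM in replicate 1 and 1429.4 TPM in replicate 2. Gsdma2 alone held 98.3% and 98.2% of that TPM, and the other 8 genes together came to 25.2 and 25.6 TPM. By expected counts, which are not divided by length, Gsdma2 held 90.0% and 92.3% of the family.

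**Figure D1:**
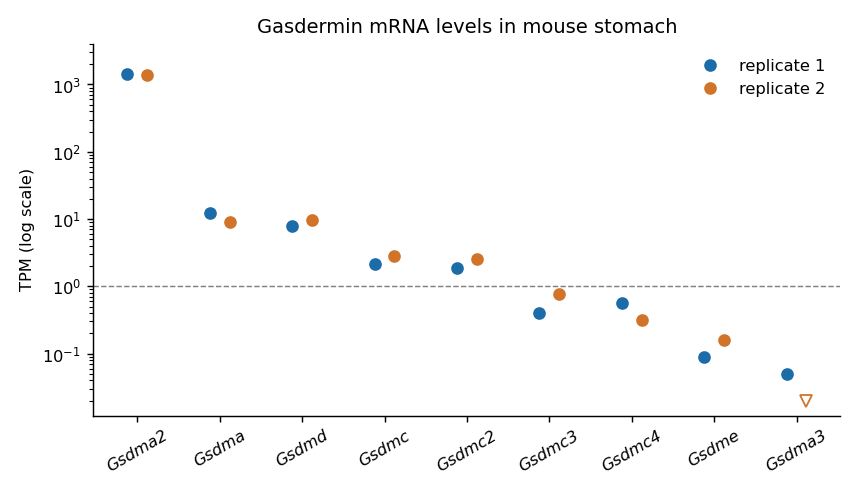
TPM of each gasdermin on a log axis, with a point for replicate 1 (blue) and replicate 2 (orange), ordered by mean. The dashed line is TPM 1, and the open triangle is Gsdma3 in replicate 2, listed at 0 and drawn at the foot of the axis. Gsdma2 sits at 1442.8 and 1403.7 TPM and every other member at 12.1 TPM or lower.

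Gsdma2, one of the mouse copies of gasdermin A, had 1442.8 TPM in replicate 1 and 1403.7 TPM in replicate 2, from 27660 and 43156 expected counts. Its mean of 1423.3 ± 27.6 TPM (SD, n = 2) held rank 41 of 21474 protein-coding genes. The 3 protein-coding genes nearest to it in log2(TPM + 1) over these 2 libraries were Lgals7, a galectin of stratified epithelia, and the simple-epithelial keratins Krt8 and Krt19. Lgals7 had 1329.2 and 1292.7 TPM. With 2 libraries this likeness is one of level only, and the level of Gsdma2 rests on a 215-base transcript described below, without which its mean was 473.3 TPM.

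Gsdma had 12.1 TPM in replicate 1 and 9.14 TPM in replicate 2 (1770 and 1590 counts). Gsdmd, the gasdermin cut by the inflammatory caspases, had 7.87 and 9.83 TPM (715 and 1069 counts). The ranges of these genes overlapped, so their order is not settled by these libraries. The genes nearest to Gsdma in level were Evi5l, Pard6b and Hist1h3a, which had 12.12, 12.04 and 12.13 TPM in replicate 1 and 9.07, 9.26 and 8.97 TPM in replicate 2.

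Gsdmc had 2.17 TPM in replicate 1 and 2.85 TPM in replicate 2 (276 and 433 counts). Gsdmc2 had 1.86 and 2.57 TPM (193 and 327 counts). Both lay below Gsdmd in each library, and their ranges overlapped each other. Gsdmc3 had 0.40 and 0.77 TPM (45.5 and 104 counts) and Gsdmc4 had 0.57 and 0.32 TPM (62.4 and 42.0 counts). These copies also overlapped, and their order turned round between the libraries. The 4 Gsdmc genes, which are known in mouse mainly from the intestine, summed to 5.0 TPM in replicate 1 and 6.51 TPM in replicate 2. The deposited posterior SD of the count, which shows how far shared reads leave a count open, was 2.84% and 2.87% of the count for Gsdmc3, 1.65% and 2.36% for Gsdmc4 and under 1% for Gsdmc2. It was 0 for Gsdmc, Gsdmd and Gsdme, and 0.0147% and 0.0742% for Gsdma, so it did not simply follow the share of windows in common.

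Gsdme, also named Dfna5, had 0.09 TPM in replicate 1 and 0.16 TPM in replicate 2, from 11 and 22 counts. Gsdma3, whose mutations in mice cause hair loss, had 4 counts (0.05 TPM) in replicate 1 and 0 counts in replicate 2. A count of 0 there allows up to 0.0326 TPM, the level of 3 counts, for counting error only. No fold is given for Gsdma3. The levels of Gsdme and Gsdma3 did not overlap those of the Gsdmc genes.

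The TPM of Gsdma2 rested on a very short transcript. This non-coding model of 215 bases and 3 exons had an effective length, the number of positions at which a fragment could start, of 11.8 bases in replicate 1 and 24.3 bases in replicate 2. It drew 703 and 1444 counts, 2.54% and 3.35% of the counts of the gene. Divided by so short a length, these became 1032.5 and 867.4 TPM, 71.6% and 61.8% of the TPM of the gene. The 2 coding transcripts, of 9 exons (1314 bases) and 11 exons (1673 bases), took the bulk of the reads. The 9-exon transcript had 70.7% and 68.5% of the counts, with 305 and 384 TPM. The 11-exon transcript had 24.6% and 25.03%, with 80.04 and 106 TPM.

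**Figure D2:**
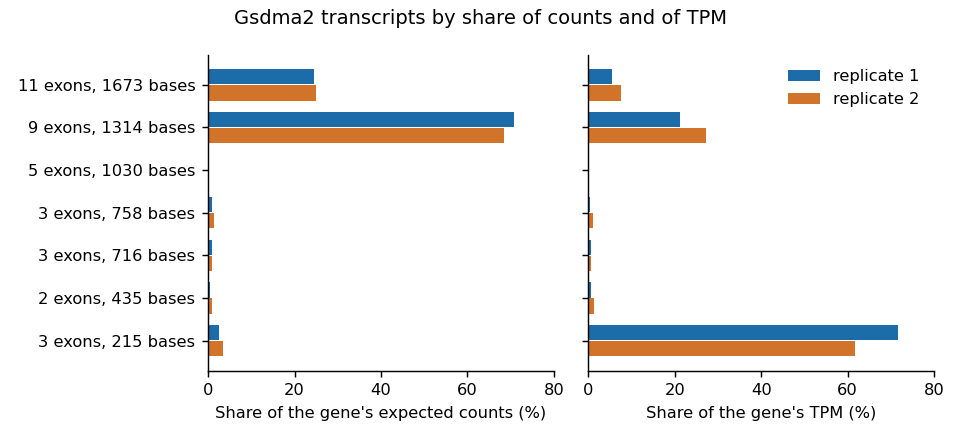
Share of the Gsdma2 expected counts (left) and of the Gsdma2 TPM (right) held by each of its 7 transcripts, as bars for replicate 1 (blue) and replicate 2 (orange), named by their exons and length. The 215-base transcript holds 2.54% and 3.35% of the counts and 71.6% and 61.8% of the TPM.

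Without the 215-base transcript, Gsdma2 came to 410.3 TPM in replicate 1 and 536.3 TPM in replicate 2, a mean of 473.3 ± 89.1 TPM (SD, n = 2) and rank 148 among protein-coding genes. It then remained the highest gasdermin in both libraries, and the family sum fell to a mean of 498.7 TPM. By TPM, the direction between the libraries also depended on that transcript. The log2 TPM ratio of replicate 1 over replicate 2 was 0.04 with it and -0.39 without it. In scaled counts, with all transcripts kept, the ratio was -0.35.

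Splice junctions were listed for the libraries together on another build, mm9, and were tied to each gene by the lengths and spacing of its introns. The table gives 2 numbers per junction that no source ties to a library, so their sum is given. Of 110 annotated introns of the 9 genes, 66 were listed, and 42 of them passed at a reproducibility value of 0.1 or lower. All 11 introns of Gsdma, 13 of 14 of Gsdma2, 11 of 12 of Gsdmd and 10 of 12 of Gsdmc were listed. The copies Gsdmc2, Gsdmc3 and Gsdmc4 had 8 of 14, 6 of 13 and 5 of 11, and Gsdme had 2 of 12 with 11 reads in all. Gsdma3 had none at the spacing that its neighbours shared.

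The intron of Gsdma2 that was not listed is the one that sets the 9-exon transcript apart. With exons numbered as in the 11-exon transcript, it joins exon 3 to exon 6 and leaves out exons 4 and 5 (344 bases), and its coding sequence has 828 bases in place of 1329. Each of the 3 joins that the 11-exon transcript has in its place was listed, with 1196 reads from exon 3 to exon 4, 184 from exon 4 to exon 5 and 2313 from exon 5 to exon 6. No junction lay within 5 bases of the exon 3 to exon 6 join at both ends. The expected counts thus gave the 9-exon transcript most of the reads, while the junction table held no read for the join that defines it. The tables were made on different builds, and the cause of the difference was not tested. Joins are printed at which a read can tell the 9-exon and 11-exon transcripts apart. Reads within exons 4 and 5, or across the join between them, can do so too. Each line has the last 30 bases of the upstream exon in small letters and the first 30 of the downstream exon in capitals. Exon 3 ends with chr11:98649238-98649267 and exon 5 with chr11:98650977-98651006, while exon 4 starts with chr11:98649471-98649500 and exon 6 with chr11:98651974-98652003.
Gsdma2 exon 3 to exon 4: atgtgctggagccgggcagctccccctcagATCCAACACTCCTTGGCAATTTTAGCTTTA
Gsdma2 exon 5 to exon 6: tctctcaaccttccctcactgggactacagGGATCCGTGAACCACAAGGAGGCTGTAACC
Gsdma2 exon 3 to exon 6: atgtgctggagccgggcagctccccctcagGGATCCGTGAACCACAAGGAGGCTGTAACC

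The 5′ end of Gsdma2 was spliced in several ways. From exon 1, 1762 reads went to exon 2 of the coding transcripts, and 647 went to the longer second exon of the 215-base transcript. A further 2717 reads went straight to exon 3, which left out exon 2. No M21 transcript of Gsdma2 has that join, and it outnumbered both annotated joins from exon 1. Exon 2 to exon 3, which all 3 of these transcripts share, had 5408 reads.

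Reads were uneven along the genes. In Gsdmc, introns 10 and 11, the last of the gene, had 148 and 270 reads, and the other listed introns had 1 to 12. In Gsdmd, the last 3 introns had 243, 316 and 255 reads, and the upstream ones had 6 to 46. Gsdmc2 showed 91 and 118 reads at its last 2 introns, and at most 30 at any other. Gsdma had most spliced reads at the 5′ end, with 518 at intron 1 and 9 to 87 at each of the others. A contig table on mm9, which gives a coverage signal per transcribed stretch, was uneven too. Stretches that span several exons also hold the introns between them, so these signals are not of exons alone. The signal was 12.6 over exons 8 to 11 of Gsdmd (1184 bases). It was 0.886 to 4.34 over the upstream stretches, with 4.34 over exons 2 to 4 (1735 bases). Over Gsdma it was 18.2 and 18.9 at exons 1 and 2, and at most 4.51 at the listed exons from 3 to 11. In the last exon it was 21.3 over a stretch of 569 bases and 0.428 over another of 244 bases. Over Gsdma2 it was 295 for the stretch with exons 10 and 11, and 8.91 to 63.4 for the others. The cause was not tested, and a TPM averages over the whole length of a transcript.

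**Figure D3:**
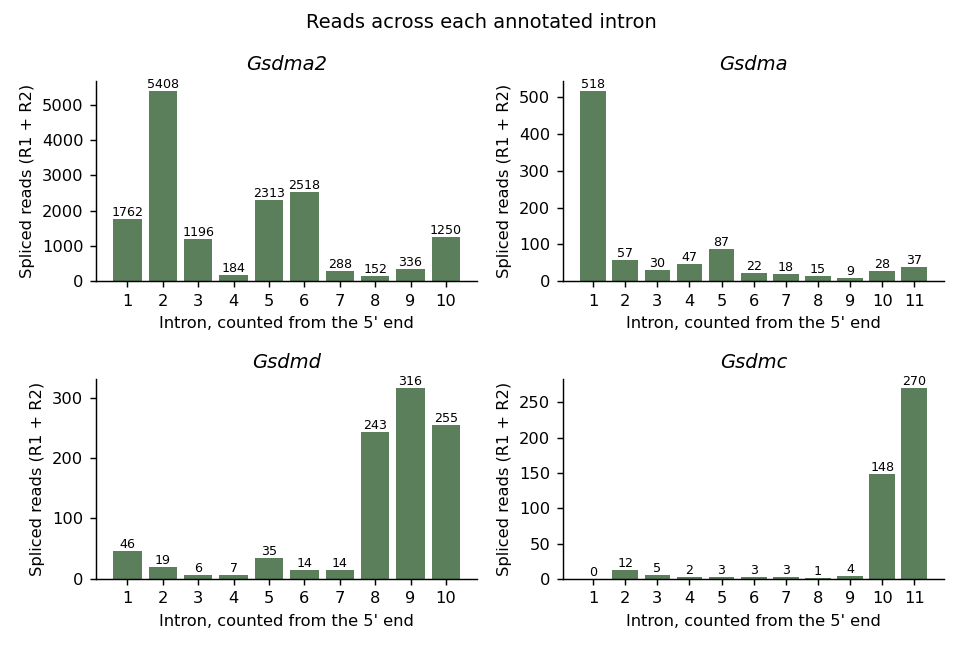
Spliced reads across each intron of the main coding transcript of Gsdma2, Gsdma, Gsdmd and Gsdmc, counted from the 5′ end, as the sum of both numbers in the junction table, with a linear axis per panel. Gsdmd and Gsdmc have most reads at their last introns (243 to 316 in Gsdmd, 148 and 270 in Gsdmc), and Gsdma has most at intron 1 (518).

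Some junctions joined 1 gasdermin to another. Among Gsdma, Gsdma2 and Gsdma3 there were 19 such joins with 912 reads, of which 13 passed at 0.1 or lower. From Gsdma2 to Gsdma there were 9 joins with 502 reads, and none ran from Gsdma to Gsdma2, which lies upstream. The other 10 started in Gsdma3 and held 410 reads, although Gsdma3 had no listed intron of its own and 4 counts at most. The join with most reads ran from exon 7 of Gsdma2 to exon 9 of Gsdma (218 reads), beside 288 reads for exon 7 to exon 8 within Gsdma2. The receiving exon of this join and its counterparts are printed because they begin alike, and such likeness varied between joins. In Gsdma2 (chr11:98654869-98654944) and Gsdma (chr11:98672976-98673051) the first 32 bases are the same, and capitals mark the 4 positions at which these or the matching exon of Gsdma3 (chr11:98635206-98635281) differ over 76 bases.
Gsdma2 exon 8: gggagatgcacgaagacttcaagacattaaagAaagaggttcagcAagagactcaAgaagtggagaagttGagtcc
Gsdma exon 9: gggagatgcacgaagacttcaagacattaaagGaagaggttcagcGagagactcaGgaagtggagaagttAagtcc
Gsdma3 exon 8: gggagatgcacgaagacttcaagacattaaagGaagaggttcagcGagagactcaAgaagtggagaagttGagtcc

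A further 11 joins linked Gsdmc genes, led by exon 11 of Gsdmc2 to exon 12 of Gsdmc with 64 reads. The listed reads add to 186, but some joins carry the same pair of numbers, so a read may be counted more than once. The last exons of Gsdmc2 and Gsdmc start with 179 bases in common. Of the 11, 3 joins among Gsdmc2, Gsdmc3 and Gsdmc4 ran from exon 2 of 1 copy to exon 3 of another, with 24 reads each. For the join of exon 2 to exon 3 within Gsdmc3, 24 were also listed. All of these entries split as 2 and 22, and whether they are the same reads was not tested. Exon 2 differs by at most 2 of 212 bases among these copies. Likeness at the joins between genes varied. It was taken as the run of bases that the receiving exon shares, from its start, with the starting gene's own next exon. This run was 5 bases for exon 10 of Gsdma3 to exon 11 of Gsdma2 (142 reads). It was 74 for exon 5 of Gsdma2 to exon 5 of Gsdma (116 reads). For exon 1 of Gsdma3 to exon 3 of Gsdma2 (91 reads) it was 8. Whether the joins between genes are spliced RNA or reads placed on the wrong copy was not tested.

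In scaled counts, 0 of the 5 gasdermins that averaged TPM 1 or more lay 2-fold apart between the libraries, where 7.6% of 11046 protein-coding genes at that level did. Ratios are log2 values of replicate 1 over replicate 2, with a 95% interval for counting error only. Gsdma2 had -0.35 (-0.38 to -0.33), Gsdmd -0.29 (-0.43 to -0.15), Gsdmc -0.36 (-0.59 to -0.14) and Gsdmc2 -0.47 (-0.74 to -0.21). Gsdma was higher in replicate 1, at 0.44 (0.34 to 0.54). The median of the 5 was -0.35, and that of the protein-coding genes was 0.05. Each of these intervals excluded 0, so counting error alone did not cover the difference between these libraries. How many intervals of other genes excluded 0 was not counted. The SD of the log2 ratio over the 11046 protein-coding genes was 0.59, and each of the 5 gasdermin ratios was smaller in size than that. On the same scale, the median log2 ratio was -0.07 over the 15 squamous markers (7 higher in replicate 1, 8 in replicate 2), -0.26 over the 6 pit cell markers (2 and 4) and -0.53 over the 5 chief cell markers (0 and 5). It was 0.80 over the 4 parietal cell markers (3 and 1). Their part in the ratios was not tested.

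Below TPM 1, Gsdmc3 had -0.86 (-1.42 to -0.38) and Gsdmc4 had 0.82 (0.26 to 1.45), and these intervals take no account of how reads were divided between the copies. Gsdme had -0.63 (-1.90 to 0.39), which is not distinguishable from no difference at this depth.

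**Figure D4:**
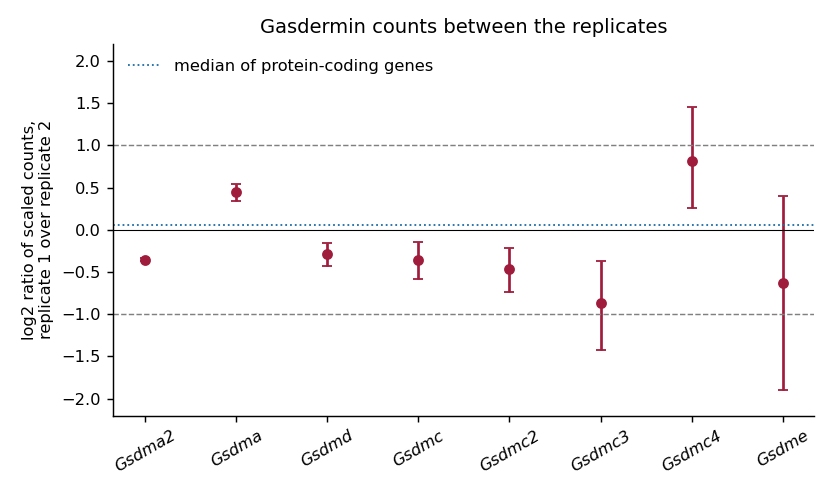
Log2 ratio of TMM-scaled counts, replicate 1 over replicate 2, for the 8 gasdermins with counts in both libraries. Bars are 95% intervals for counting error, dashed lines mark a 2-fold difference and the dotted line the median of protein-coding genes (0.05). All 8 points lie within 2-fold.

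The genes that act with gasdermins were split by role. Each list count at TPM 1 in both libraries is to be read beside the 48.9% of protein-coding genes at that level. Of 10 proteases known to cut them, 2 were at TPM 1 in both libraries, and the list's median was 0.085 TPM. Casp6, an executioner caspase and the highest of the list, had 67.1 and 70.7 TPM. Casp1, which cuts Gsdmd downstream of inflammasomes, had 0.03 TPM (2 counts) in replicate 1 and 0 in replicate 2. Casp4, the mouse sensor of cytosolic lipopolysaccharide, had 0.08 and 0.10 TPM from 3 and 4 counts. Casp8, the initiator caspase of death receptors, had 0.47 and 0.65 TPM. The granzyme Gzmb had 6 counts in each library. At this depth the proteases best known for cutting Gsdmd were at 0 to 4 counts (Casp1 and Casp4), while Gsdmd itself had 715 and 1069.

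Of 15 inflammasome sensors and adaptors, 2 were at TPM 1 in both libraries, with a list median of 0.39 TPM. The adaptor Pycard (ASC) had 30.3 and 36.2 TPM, and Nek7, a kinase that binds Nlrp3, had 2.39 and 2.38 TPM. Nlrp3 itself, named after its values were seen, had 0.07 and 0.04 TPM. The flagellin sensors Naip5 and Naip6 had 0.31 and 0.83 TPM in replicate 1 and 1.28 and 3.07 TPM in replicate 2. Nlrc4, the partner of the Naip proteins, had 0.53 and 0.98 TPM. The Naip genes are paralogs, and how far reads were shared among them was not measured here.

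Of 15 measured interleukin-1 family ligands and receptors, 7 reached TPM 1 in both libraries, which is near the 48.9% of protein-coding genes. Il33, an alarmin held in nuclei, had 7.00 and 6.04 TPM and was the highest of the list. Il36a, an epithelial cytokine, had 2.96 and 2.04 TPM, and Il1rn, the receptor antagonist, had 2.40 and 2.46 TPM. The decoys Il18bp and Il1r2 had 2.04 and 1.30 TPM in replicate 1 and 2.48 and 2.08 TPM in replicate 2. Il1b, named after its values were seen, had 0.11 and 0.35 TPM from 7 and 21 counts.

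Of 14 measured genes of membrane rupture and repair, 13 were at TPM 1 in both libraries, beside 48.9% of protein-coding genes. The list's median was 19.4 TPM. Ninj1, which ruptures the membrane after pores have formed, had 172.7 TPM in replicate 1 and 134.4 TPM in replicate 2, and its paralog Ninj2 had no count. The ESCRT proteins Pdcd6ip, Chmp1a, Chmp6, Chmp4b and Tsg101, of a machinery that sheds damaged membrane, averaged 126.9, 64.4, 49.6, 34.5 and 30.3 TPM. Of 12 known modifiers of gasdermin D, 11 were at TPM 1, led by the Ragulator subunits Lamtor1 (157.5 and 122.8 TPM), Lamtor4 (125.3 and 94.8 TPM) and Lamtor2 (81.6 and 74.7 TPM). Zdhhc7, a palmitoyltransferase, had 49.6 and 34.2 TPM.

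**Figure D5:**
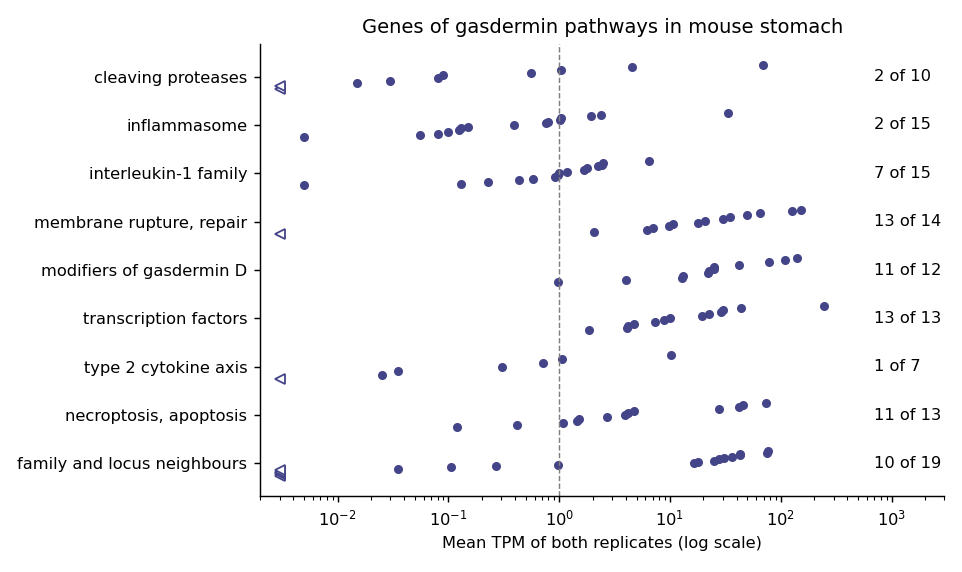
Mean TPM of each gene in 9 lists around the gasdermins, on a log axis, with 1 point per gene and open triangles at the left edge for genes listed at 0. The figures at the right give how many of the measured genes were at TPM 1 (dashed line) in both libraries, which was 2 of 10 for the proteases and 13 of 14 for membrane rupture and repair. Over protein-coding genes the share was 48.9%.

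All 13 transcription factors listed as acting on gasdermin genes were at TPM 1 in both libraries. Klf4, a factor of differentiated epithelium, had 254.7 and 241.1 TPM, and Rela and Nfkb1, subunits of NF-kappa-B, averaged 43.6 and 30.4 TPM. Stat6, which relays interleukin-4 and interleukin-13, had 25.2 and 32.6 TPM. Of the 7 genes of that type 2 cytokine axis, the receptor chain Il4ra alone passed, with 11.3 and 9.13 TPM. Il13 had 0.78 and 0.66 TPM, and Il25 had 0.46 and 0.15 TPM.

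Of 13 genes of other death pathways, 11 were at TPM 1 in both libraries, among them Bax (49.4 and 42.8 TPM), Bak1 (43.8 and 40.0 TPM) and Ripk3 (4.42 and 3.88 TPM). Mlkl, the pore-forming protein of necroptosis, had 0.24 and 0.60 TPM. Mcl1, an inhibitor of apoptosis, had 111.6 TPM in replicate 1 and 35.0 TPM in replicate 2, with a log2 ratio of 1.31. It was the only one past 2-fold among the 11 genes of the list that averaged TPM 1 or more. Over all protein-coding genes at that level, 7.6% were past 2-fold. Mlkl, below that level, had -1.22 from 25 and 74 counts.

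Among 19 measured family relatives and neighbours of the gasdermin genes, 10 were at TPM 1, which is near the 48.9% of protein-coding genes. Psmd3, Med24 and Thra, from the Gsdma neighbourhood, averaged 75.8, 36.03 and 42.7 TPM, and Csf3, from the same stretch, had 0.16 and 0.05 TPM. Naprt and Eef1d, from the Gsdmd neighbourhood, averaged 76.3 and 42.5 TPM. Pjvk, the most distant gasdermin relative, was listed at 0 in both libraries and was named after its values were seen.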

How the data were processed

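For each library the authors deposited expected counts and TPM per gene and transcript. A README among the files gives mm10 as the build and release M4 of GENCODE as the annotation. No quantifier is named in the sources used here. In the same tables the authors deposited FPKM and the percent of each gene held by a transcript. The splice junction counts and the contig signal were deposited on mm9 for the series as a whole, each with a significance field that the sources used here do not define and that was read as a reproducibility value. No coordinates were converted.

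Symbols, exons and sequences came from GENCODE M21 on the same mm10 build, and 98.0% of mouse gene IDs had a symbol. Introns were tied to junctions where at least 2 on a chromosome and strand shared lengths and spacing. Count ratios used TMM scaling in edgeR 4.0.16 (DESeq2 1.42.0 size factors as an alternative) over rounded expected counts with a prior count of 2, spike-ins and phiX174 left out. Intervals are exact conditional binomial ones at 95%. The scaling was tested on simulated data. Coding sequences were aligned with Biopython 1.88. The members and lists were chosen with earlier results of these data known. Named were all members and, from each list, up to 6 genes of highest mean TPM and up to 2 below TPM 1 in both libraries. Some genes that this rule picks are not reported here.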

Additional observations from a re-analysis of the deposited data

How the results depend on the processing

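No paired analysis was possible because the series has 1 group. Of 9 gasdermins, 5 were at TPM 1 in both libraries. That count was 3 at a limit of TPM 5 and 8 when 10 expected counts per library were asked for in place of a TPM. It was 5 at TPM 0.5, by posterior mean TPM and in each library alone. The summed TPM of 1448.7 became 2337.8 when Clps and Pgc also were left out of the total, and 498.7 without the 215-base transcript of Gsdma2, an alternative chosen after seeing the data. In single libraries it was 1429.4 to 1468.0. That transcript held 66.7% of the TPM of Gsdma2 and 2.94% of its counts, which the alternative's own construction explains, since a TPM divides counts by effective length. Single libraries gave 61.8% to 71.6%. Without a limit on reproducibility 66 introns were listed, against 42 at 0.1 and 28 at 0.01. The count of gasdermins 2-fold apart was 0 under each scaling and filter tried. Below about 10 counts (Gsdma3) depth allows no order.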
